A study of Mus musculus with 10 samples.

Results

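Transcripts of 10 genes that govern which odorant receptor an olfactory neuron expresses, and whether that receptor reaches the cell surface, were compared between Apoe4 and Apoe3 mice. The genes were picked by symbol from the 24421 rows of the authors' deposited results table, and all 10 were found there and tested. They are the receptor chaperones Rtp1, Rtp2 and Reep1, the transcription factors Lhx2, Ebf1 and Emx2, the bridging factor Ldb1, the histone demethylase Kdm1a, the nuclear envelope protein Lbr and the stress-induced factor Atf5. No transcript among them differed detectably between the genotypes, and the values below show how large a difference could have gone unseen.

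Each mature olfactory neuron transcribes a chosen odorant receptor allele out of a very large gene family, while the remaining receptor genes sit in compact heterochromatin. Lhx2 and Ebf proteins bind receptor enhancers, Ldb1 joins the Lhx2-bound enhancers of different chromosomes into a hub, and Kdm1a removes histone methyl marks around the time of first activation. Receptor protein made in the endoplasmic reticulum triggers Atf5 translation, which helps to fix the choice. Many receptors need Rtp1 and Rtp2 to leave for the cell surface. Lbr tethers heterochromatin to the nuclear envelope, and its loss from these neurons goes with the gathering of receptor genes in the nuclear interior.

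Rtp1 and Rtp2 are close relatives on mouse chromosome 16, so reads shared between them could blur their separate values. Their coding sequences in GENCODE vM21 were 68.6% identical over 795 aligned columns. The longest identical stretch was 47 bases, both in the coding sequences and in the whole transcripts, and is shown in capitals with its flanks to make visible how much a read could share. Positions are counted from the A of the start codon, in the coding sense.
Rtp1, bases 520 to 656: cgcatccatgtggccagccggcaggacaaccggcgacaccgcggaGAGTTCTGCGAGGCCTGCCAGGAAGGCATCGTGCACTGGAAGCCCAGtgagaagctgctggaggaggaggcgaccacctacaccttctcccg
Rtp2, bases 412 to 548: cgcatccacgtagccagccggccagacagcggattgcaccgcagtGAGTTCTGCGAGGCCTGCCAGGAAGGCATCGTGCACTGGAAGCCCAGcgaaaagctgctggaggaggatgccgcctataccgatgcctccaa
For each gene the transcript with the longest coding sequence was compared, and the other pairs compared shared less. The longest identical stretch was 24 bases between Ebf1 and Ebf3, and 23 between Reep1 and Reep2 and between Ldb1 and Ldb2. It was 17 between Lhx2 and Lhx9 and 14 between Emx2 and Emx1. Ebf1 was compared at 3422 bases, not at its longest transcript, so some sequence was not searched. Atf5 and Lbr were compared with no relative.

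RNA came from olfactory epithelium of untreated C57BL/6 mice aged 6 months, 4 labelled Apoe3 and 6 labelled Apoe4, the human alleles of the lipid carrier apolipoprotein E. The sources used here do not say how the alleles were introduced, what drives them or which sex the mice were. The sources name biological replicates, and values per library were not used here, since the authors' deposited table holds 1 mean, fold change and error per gene. Which libraries were high or low therefore could not be read for any gene.

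Over the whole table, 125 of 16050 genes tested were called at an adjusted p under 0.05, which is 0.779%, with 52 higher and 73 lower in Apoe4. Each of the 4 Y-linked genes with a test was called lower in Apoe4, at deposited log2 fold changes from -3.72 for Eif2s3y to -2.80 for Kdm5d. Folds of this size in Y-linked genes mean that the groups differed in sex make-up, so sex-linked and allele-linked differences cannot be told apart. Library depth was estimated as the sum of the deposited means times a size factor for each library, read from genes with a single read. The estimates ran from about 14938522 to 20105203 assigned reads and take the libraries as alike in composition. Defining markers of the labelled tissue were abundant, with mean normalized counts of 113676 for Omp, of mature olfactory neurons, and 63585 for Cyp2g1, of supporting cells, in the authors' deposited table. In such whole tissue, fewer cells of a type and less RNA per cell cannot be told apart.

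None of the 10 genes passed the authors' DESeq2 test and none had an unadjusted p under 0.05. Of all 16050 genes tested 0.779% were called and 10.3% had an unadjusted p under 0.05, so a count of 0 among 10 is no result about them as a group. Their median log2 fold change was 0.01, beside 0.00 for all genes tested, with 7 values above 0 and 3 below. The deposited folds ran from -0.06 for Emx2 to 0.07 for Ebf1, and the smallest fold among the 125 called genes had a size of 0.23. Adjusted p ran from 0.811 to 0.988. The largest Wald statistic, a fold divided by its error, had a size of 0.888 among the 10, and 53.8% of all genes tested had a smaller one.

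Which genotype a positive fold favours is not written in the authors' deposited table. Genes with a single read placed 6 libraries on the positive side and 4 on the negative, so positive values are read as higher in Apoe4. Its folds were also shrunk towards 0. The shrinkage was undone approximately to give unshrunken folds with 95% intervals, means in each genotype and the spread between libraries that each error implies. Every error allows 2 solutions, and the smaller was taken. The larger would need a spread between libraries of 42.3% to 77.5%, and would widen each log2 interval to between 0.77 and 1.41 on either side. The means by genotype below are such derived values, not means over library values.

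**Figure D1:**
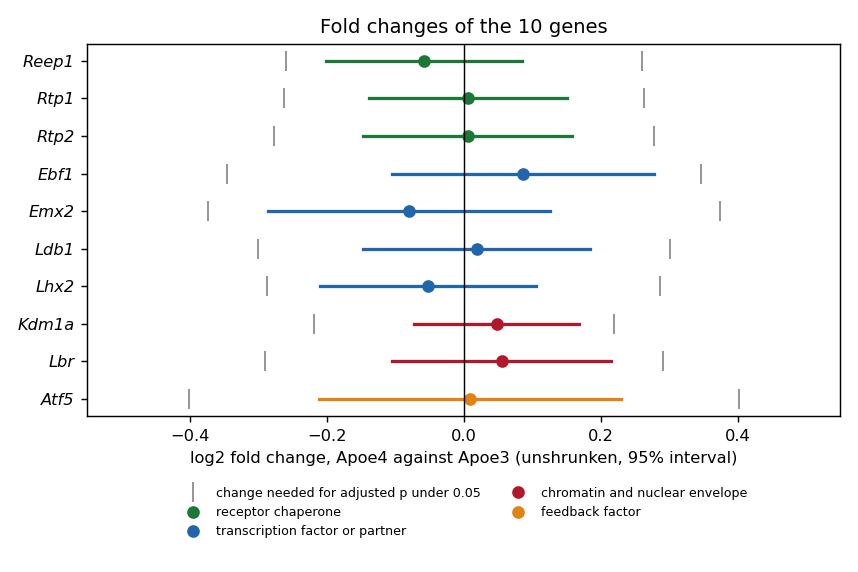
Unshrunken log2 fold change of each gene between Apoe4 and Apoe3 (points) with its 95% interval (lines), coloured by role. Grey ticks mark the estimate that would have been called at that gene's error. All 10 intervals include 0, and each lies inside its ticks.

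Among the receptor chaperones, both transporters had deposited folds nearer to 0 than the other 8 genes, although with the trend with transcript length removed Rtp2, at 0.03, did not. Rtp1 (chromosome 16, 23429133 to 23433960, GRCm38, plus strand, protein coding) codes for the receptor transporter best known for bringing odorant receptors to the surface. Its mean was about 11555 normalized counts in Apoe3 and 11605 in Apoe4. In the authors' deposited table its log2 fold change was 0.01 ± 0.07 (SE, adjusted p = 0.988). The unshrunken interval ran from 0.908 to 1.11-fold, and an estimate of 1.20-fold would have been called at this error. That limit is on the estimate, which for a true change of this size could fall on either side of it.

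Rtp2 (chromosome 16, 23925548 to 23932394, minus strand, protein coding) lies 491588 bases from Rtp1 and codes for a second transporter of the same kind. Its mean was about 7758 in Apoe3 and 7790 in Apoe4. The authors' deposited table gave a log2 fold change of 0.01 ± 0.07 (SE, adjusted p = 0.988), and the unshrunken interval was 0.903 to 1.12-fold. Both transporters thus had nearly equal means in the genotypes, in transcripts that share at most 47 identical bases in a row.

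Reep1 (chromosome 6, 71707561 to 71810710, plus strand, protein coding) codes for a protein that shapes the endoplasmic reticulum and was found with the transporters as a promoter of receptor display. Its mean was about 1888 in Apoe3 and 1814 in Apoe4, with a log2 fold change of -0.05 ± 0.07 (SE, adjusted p = 0.835, the authors' deposited table). The unshrunken interval was 0.870 to 1.06-fold. Its upper bound was the lowest among the 10 genes.

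Among the transcription factors, Lhx2 (chromosome 2, 38339281 to 38369733, plus strand, protein coding), a LIM homeodomain protein, had means of about 4781 in Apoe3 and 4610 in Apoe4. In the authors' deposited table the log2 fold change was -0.05 ± 0.07 (SE, adjusted p = 0.870), and the unshrunken interval was 0.864 to 1.08-fold. Its partner Ldb1 (chromosome 19, 46031570 to 46045214, minus strand, protein coding), which binds no DNA itself, had means of about 2099 and 2126. The authors' deposited table gave Ldb1 a log2 fold change of 0.02 ± 0.07 (SE, adjusted p = 0.961), and its interval was 0.903 to 1.14-fold. Neither partner of the enhancer hub passed the test.

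Ebf1 (chromosome 11, 44617317 to 45008091, plus strand, protein coding), of the Olf/Ebf family first described at promoters of olfactory genes, had the fold farthest from 0 of the 10. Its mean was about 4167 in Apoe3 and 4424 in Apoe4, a log2 fold change of 0.07 ± 0.08 (SE, adjusted p = 0.811, the authors' deposited table). The unshrunken interval reached from 0.930 to 1.21-fold, the highest upper bound of the set. Genes with longer transcripts tended to have higher Wald statistics (Spearman rho = 0.415 across 15961 genes of the same libraries, as a description), and Ebf1 has the longest transcript of the 10, at 5981 bases. With that trend removed its log2 fold change was 0.02.

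Emx2 (chromosome 19, 59458372 to 59465357, plus strand, protein coding), a homeodomain factor needed for expression of many receptor genes, had means of about 891 in Apoe3 and 843 in Apoe4. Its log2 fold change was -0.06 ± 0.08 (SE, adjusted p = 0.845, the authors' deposited table). The unshrunken interval, 0.820 to 1.09-fold, had the lowest lower bound of the 10. The antisense gene Emx2os overlaps 264 of the 3002 exonic bases of Emx2, and had a log2 fold change of -0.03 (adjusted p = 0.933, the authors' deposited table). Because strandedness of the counting is not given, reads in that overlap cannot be assigned with certainty. Overlaps on the opposite strand also touch Lbr (440 of 4761 exonic bases, with Dnah14), Ldb1 (177 bases, with Pprc1) and Atf5 (82 bases, with Nup62 and Il4i1).

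Kdm1a (chromosome 4, 136550540 to 136602723, minus strand, protein coding) had the smallest error of the set. Its mean was about 1688 in Apoe3 and 1745 in Apoe4, with a log2 fold change of 0.04 ± 0.06 (SE, adjusted p = 0.839, the authors' deposited table). The unshrunken interval was 0.951 to 1.12-fold, and an estimate of 1.16-fold would have been called. Lbr (chromosome 1, 181815335 to 181843046, minus strand, protein coding), a sterol reductase and chromatin tether of the inner nuclear membrane, had means of about 566 and 588. For Lbr the authors' deposited table gave a log2 fold change of 0.05 ± 0.07 (SE, adjusted p = 0.864), and the interval was 0.930 to 1.16-fold.

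Atf5 (chromosome 7, 44812256 to 44816658, minus strand, protein coding) is known to be controlled mainly in translation, which transcript counts do not measure. Its mean was about 26113 in Apoe3 and 26275 in Apoe4. The authors' deposited table gave a log2 fold change of 0.01 ± 0.09 (SE, adjusted p = 0.988), the widest error of the 10, and the unshrunken interval was 0.863 to 1.17-fold. An estimate of 1.32-fold would have been needed for a call, at the Wald statistic of 3.56 that was the smallest among called genes. Atf5 has the shortest transcript of the set, at 1816 bases, and with the length trend removed its log2 fold change was 0.06.

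The 10 genes were far apart in level, which is compared per kilobase of the longest annotated transcript. Atf5 stood highest, at 14433 mean normalized counts per kilobase, rank 32 of the genes tested that have a length. Rtp1 followed with 3713 and Rtp2 with 3203, ranks 191 and 239. With the median transcript length those 3 ranks were 80, 702 and 485. Lhx2 was at 1647, Ebf1 at 722, Ldb1 at 675, Kdm1a at 569, Reep1 at 470, Emx2 at 296 and Lbr at 165 per kilobase. The step from Atf5 to Rtp1 was 3.89-fold. By contrast Ebf1 exceeded Ldb1 by 6.99%, less than their joint spread of 13.8% between single libraries. That spread is not the error of a mean over libraries, and without values per library the order of the pair was not tested. Rtp1 exceeded Rtp2 by 15.9% against a joint spread of 11.5%. The order also rests on which transcript sets the length. With the median length of all annotated transcripts, 701 bases for Lhx2, that gene came second at 6674 per kilobase and Rtp2 at 4660 passed Rtp1 at 3713. Reep1, at 552, and Emx2, at 546, were then the lowest, 1.01-fold apart beside a joint spread of 13.7%.

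**Figure D2:**
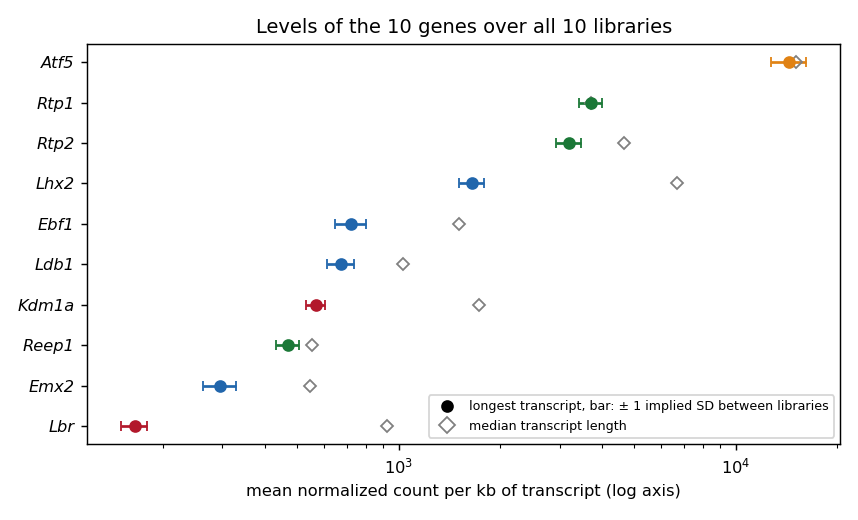
Mean normalized count per kilobase of transcript (log axis) for each gene over all 10 libraries, with the implied SD between libraries as bars; open diamonds use the median transcript length. Atf5 lies at 14433 and Lbr at 165 per kilobase, and with the median length Lbr, at 923, is no longer the lowest.

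The spread between libraries implied by the errors ran from 6.61% for Kdm1a to 12.1% for Atf5 as a coefficient of variation within a genotype, counting error included. At its own level Atf5 was among the more variable genes: 87.2% of the 86 tested genes with a mean within 2-fold of its own had a smaller value, and their median was 8.25%. Kdm1a was among the least variable at its level, with 6.26% of 4234 genes below it and a median of 8.95%. Ebf1 at 10.5% and Emx2 at 11.3% lay above 78.3% and 72.4% of genes of like level. Rtp1 at 7.94%, Rtp2 at 8.36%, Lhx2 at 8.66% and Ldb1 at 9.06% lay near the middle. Reep1 at 7.83% and Lbr at 8.77% lay below most, above 28.2% and 16.4% of such genes. These are descriptions of a model's errors, which the authors' software draws towards a trend with level.

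**Figure D3:**
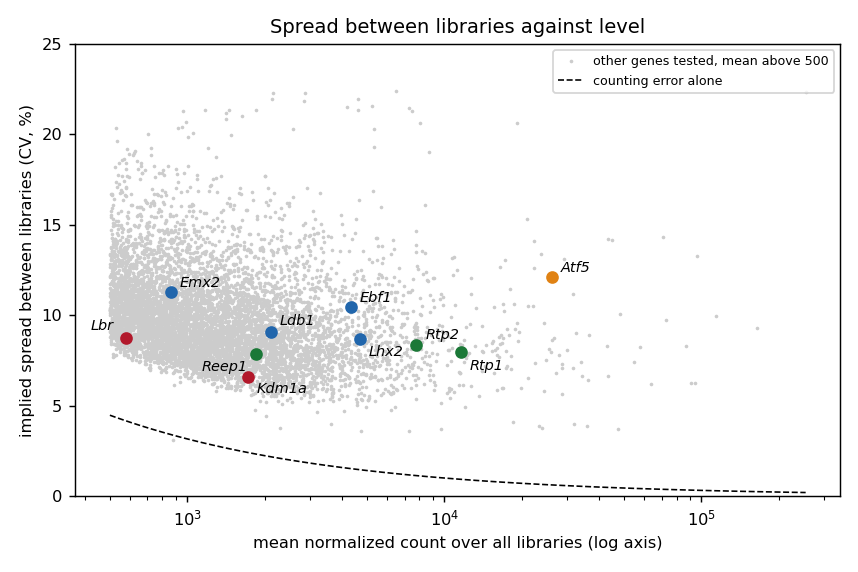
Implied coefficient of variation between libraries (percent) against mean normalized count (log axis) for genes tested with a mean above 500; coloured points are the 10 genes and the dashed line is counting error alone. Kdm1a (6.61%) lies near the lower edge of the cloud at its level and Atf5 (12.1%) above most genes of its level.

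Relatives of the 10 genes were present at very different levels. Of the Ebf family, Ebf2 and Ebf3 stood at 1650 and 1595 mean normalized counts per kilobase of the longest transcript and Ebf4 at 946, beside 722 for Ebf1. The place of Ebf1 rests on its longest transcript of 5981 bases, and with its median length it stood at 1509. Before division by length Ebf1, at 4321 mean normalized counts, exceeded Ebf4, at 2822, but not Ebf2, at 8584, or Ebf3, at 7964. By the authors' deposited table, log2 fold changes were -0.01 for Ebf2, 0.02 for Ebf3 and -0.11 for Ebf4, with adjusted p from 0.716 to 0.976. Emx1, the homologue of Emx2, was at 8.66 per kilobase, and Ldb2 at 46.7. Lhx9, a relative of Lhx2, had a mean of 0.385 normalized counts in the authors' deposited table and was not tested.

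Of the other transporters, Rtp3 was near absent at a mean of 0.671 normalized counts and was not tested, and Rtp4, known as an interferon-induced gene, was at 77.4 per kilobase. In the authors' deposited table Rtp4 had a log2 fold change of 0.08 (adjusted p = 0.848). Within the Reep family, Reep5 stood at 642 per kilobase beside 470 for Reep1. That order rests on the length taken, since their mean normalized counts were 1831 and 1844. Reep6 was at 427 per kilobase and Reep3 at 293, whereas Reep4 stood at 78.8 and Reep2 at 10.2. Deposited folds of these 5 relatives ran from -0.02 for Reep6 to 0.12 for Reep2, and none passed (adjusted p from 0.620 to 0.957).

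Beyond the 10, 94 other genes of the pathway were grouped in 5 lists, and 92 were tested. None was called by the authors' DESeq2 test, beside the background of 0.779%, and their median log2 fold change was 0.03, or 0.01 with the length trend removed. Counts at an unadjusted p under 0.05 are to be read against the 10.3% of all genes tested. The list of receptor chaperones and export factors (18 tested) had a median of 0.05 and no member with an unadjusted p under 0.05. Its lowest p belonged to the endoplasmic reticulum chaperone Calr and the cytosolic chaperone Hspa8, at 0.10 and 0.11 (adjusted p = 0.534 and 0.558, the authors' deposited table).

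The list of transcription factors and enhancer proteins (23 tested) had a median of 0.03, with 17 values above 0 and 3 members at an unadjusted p under 0.05. Tshz1, a zinc finger factor, came nearest to the threshold, at a log2 fold change of 0.23 ± 0.07 (SE, adjusted p = 0.111, the authors' deposited table). Its transcript is long, at 5656 bases, and with the length trend removed the lowest adjusted p of this list was 0.384. Ssbp3, a partner of LIM-domain complexes that contain Ldb1, was at 0.11 (adjusted p = 0.482, the authors' deposited table). The third was Bcl11b, a zinc finger factor that affects receptor class, at 0.18 (adjusted p = 0.482, the authors' deposited table), named after its value was seen.

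The list of heterochromatin factors and partners of Kdm1a (26 tested) had a median of 0.03 and 3 members at an unadjusted p under 0.05. Rcor1, the scaffold that holds Kdm1a in its repressor complex, was at 0.11, Rcor2 at -0.10 and Rcor3 at -0.01 (adjusted p from 0.626 to 0.992, the authors' deposited table). Kdm1b, the second demethylase of this type, was at 0.12 (adjusted p = 0.695), with 52.4 normalized counts per kilobase beside 569 for Kdm1a. The lowest p in this list belonged to Hmg20b, a subunit of the same complex, at -0.17, and the DNA methyltransferase Dnmt3a, at 0.14, (adjusted p = 0.437 and 0.457, the authors' deposited table). The third was a second DNA methyltransferase, Dnmt3b, at 0.21 (adjusted p = 0.471, the authors' deposited table), with a mean of only 47.9 normalized counts and also named after its value was seen.

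Genes of the feedback signal, by which a newly made receptor acts on the unfolded protein response (12 tested), had a median of 0.00 and 2 members at an unadjusted p under 0.05. Trib3, a target of that response, was at -0.30, and Ddit3, a transcription factor of the same response, at -0.20 (adjusted p = 0.167 and 0.359, the authors' deposited table). Their transcripts are short, at 2026 and 969 bases, and with the length trend removed the lowest adjusted p of this list was 0.415. The kinase Eif2ak3, which senses unfolded protein, was at 0.04 (adjusted p = 0.902) and Adcy3, the cyclase whose appearance ends the feedback, at -0.01 (adjusted p = 0.987, both from the authors' deposited table). Nuclear envelope genes beside Lbr (14 tested) had a median of 0.01 and none with an unadjusted p under 0.05. The lowest p there belonged to Sun2 and Lemd3, at 0.11 and 0.09 (adjusted p = 0.657 and 0.729, the authors' deposited table).

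**Figure D4:**
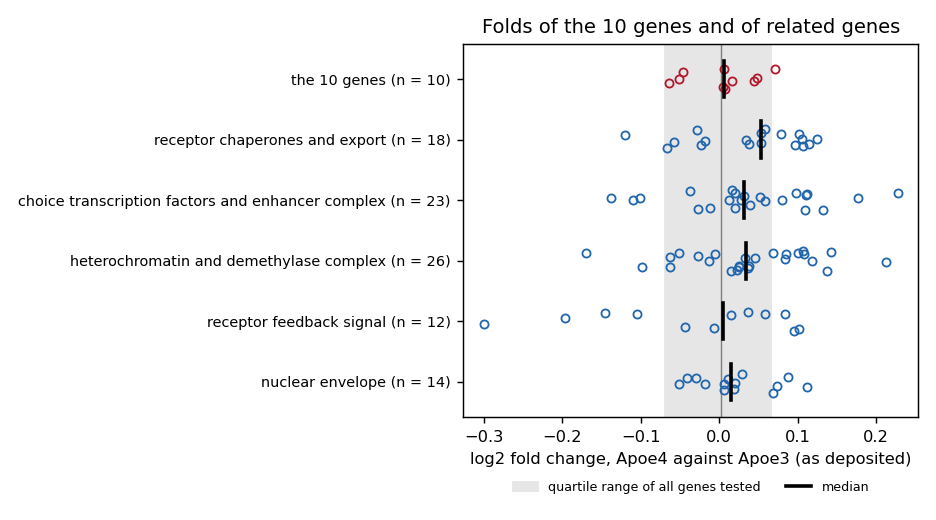
Log2 fold changes as deposited for the 10 genes and for the tested genes of 5 related lists (circles), with list medians as black bars and the range between the quartiles of all genes tested in grey. All 10 genes fall between -0.06 and 0.07, and none of the genes drawn was called.

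The receptor genes on which these factors act were described by counts alone. Of 1107 rows named Olfr with a number, 812 were tested and 17 were called, 5 higher and 12 lower in Apoe4, a share of 2.09% beside the background of 0.779%. Their median log2 fold change was -0.02, and their median mean was 38.0 normalized counts, a level at which folds are strongly shrunk. Near-identical receptor copies can split or lose reads in counting.

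Markers of the neuronal lineage were counted in the same way. These counts are to be read against 0.779% of genes tested called and 10.3% at an unadjusted p under 0.05. At that share, 1 of 10 with an unadjusted p under 0.05 is no result about a list. Of 10 mature neuron markers, which include Rtp1, none was called and 1 had an unadjusted p under 0.05 (authors' DESeq2 test), with a median of -0.02. Omp was at -0.06 (adjusted p = 0.828, the authors' deposited table). Of 10 immature neuron markers 1 was higher and had an unadjusted p under 0.05 (median 0.07), with Gap43 at 0.11 (adjusted p = 0.625), and of 10 basal and precursor markers 1 was higher and 2 had an unadjusted p under 0.05 (median 0.04). Those called were Dpysl3, of growth cones, at 0.24 (adjusted p = 0.0272) and Sox4, of neuronal precursors, at 0.35 (adjusted p = 3.98e-04, both from the authors' deposited table). Their transcripts are long, at 5479 and 4795 bases beside a median of 3341 for genes tested. Whether these calls hold with the length trend removed was not examined.

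Some markers of other cell types differed between the groups, which also differed in Y-linked transcripts, so sex and allele cannot be told apart. The part of these markers in the values of the 10 genes was not tested. Counts below are to be read against 0.779% of genes tested called and 10.3% at an unadjusted p under 0.05. Of 10 sustentacular markers 2 were lower, 6 had an unadjusted p under 0.05 and 9 had folds below 0 (median -0.13, range -0.27 to 0.08), namely Aldh1a7 and Cbr2, both oxidoreductases, at -0.27 and -0.26 (adjusted p = 0.00172 and 0.0421, the authors' deposited table). Cyp2g1 was at -0.12 (adjusted p = 0.438, the authors' deposited table). Of 4 erythroid markers tested 3 were lower, the same 3 with an unadjusted p under 0.05 (median -0.26), namely Alas2, Slc4a1 and Car1 (adjusted p from 0.00337 to 0.0171, the authors' deposited table), and 3 haemoglobin genes were listed at 0. Of 8 gland markers 2 had an unadjusted p under 0.05. Muc5b, a mucin, was at -0.18 (adjusted p = 0.476, the authors' deposited table), and Bpifb4, a secreted protein, was higher, at 0.34 (adjusted p = 2.82e-04, the authors' deposited table). Transcripts of the called sustentacular, erythroid and gland markers ran from 1110 bases for Cbr2 to 4545 for Slc4a1, and their calls without the length trend were not examined. None of 8 markers was called for horizontal basal cells (median 0.01, Krt5 at 0.14, adjusted p = 0.576), respiratory ciliated cells (median 0.06), macrophages (median -0.03) or ensheathing glia (median 0.07), with 1 at an unadjusted p under 0.05 in each.

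Neighbouring genes were counted because DNA flanking a replaced allele can differ between lines. Atf5 shares chromosome 7 with Apoe, 25.1 Mb away. Within 2.5 Mb of Atf5, 1 of 115 other tested genes was called, Ftl1. Within the same distance of Ebf1 it was 1 of 24, Adam19, and both were named after their values were seen. Over all genes tested 0.779% were called, and a single call is no result about a neighbourhood. No called gene lay within 2.5 Mb of the other 8 genes.

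Promoters were searched for the core motif of Ebf factors, CCCNNGGG, and for TAATTA, a motif bound by LIM homeodomain factors, on both strands of the 250 bases before each RefSeq start (GRCm38.p6). The table held 14 starts for 9 of the 10 genes, all but Rtp1. CCCNNGGG was found before 3 of those starts, and before 11.8% of all 32851 starts, whereas TAATTA was found before none of the 14 and before 4.84% of all. The 3 matches are shown in capitals with 10 bases on each side, since Ebf1 was among the genes measured.
Rtp2, chr16:23930979-23931006, minus strand: cctccgtcagCCCATGGGttggatctca
Reep1, chr6:71707606-71707633, plus strand: aggcagccctCCCTGGGGgttcggaggc
Ldb1, chr19:46039651-46039678, minus strand: cctccgcccgCCCTGGGGcctccttcgg
They begin 202, 65 and 47 bases before a RefSeq start, and all 3 lie inside the span that GENCODE vM21 gives the gene, downstream of its outermost start. The Reep1 match lies in an exon there. A match of letters is a description and shows no binding, and none of these 3 genes passed the test between genotypes.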

How the data were processed

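Poly(A)-selected RNA was sequenced as paired reads, per the labels' protocols, and STAR, featureCounts, DESeq2 and GRCm38 are named in the submitters' processing notes. Versions, settings, annotation and strandedness: not given in the sources used here. What was deposited is a single table with 1 line for each gene. The mean the authors deposited is a signal over all 10 libraries, counts divided by size factors and averaged. The deposited log2 fold changes and log2 errors are shrunk, the deposited score is the Wald statistic, and each deposited p-value follows from it (within 2.83e-15). Benjamini-Hochberg adjustment over the 16050 genes tested returned the adjusted p-values deposited; 8314 genes marked low were left out by the authors.

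A count test was planned for values per library; with none at hand, the authors' test was used. Genes with a single read in 1 library took 10 levels of the mean, 6 with positive folds and 4 with negative, so a positive fold is higher in Apoe4. They also gave size factors, from 0.859 to 1.14 in Apoe3 and 0.891 to 1.16 in Apoe4. The highest deposited error, 0.105, sets the strength of a ridge penalty with a sandwich error. A fit with that penalty predicted errors of 0.0104 to 0.0108 for single-read genes, against 0.0107 to 0.0108 deposited. Folds were unshrunken on this model (Python 3.11.15, numpy 2.4.6, scipy 1.17.1, statsmodels 0.14.6), and the steps were tested on simulated data. Unshrunken values are given only for means above 500, where the implied spread exceeded counting error for 99.99% of 7377 genes.

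Members and lists were chosen with earlier results of these data known. The rule for named genes takes the 10, their paralogues, 4 cell markers, feedback and complex partners, and in each list the called genes and the 2 with the smallest p; of the cell marker lists, only the called genes, the 4 markers and Muc5b are printed. One gene of the erythroid list is not reported here and was left out of its counts. Lengths and positions come from GENCODE vM21 (15503 tested genes matched by symbol, 458 by synonym). Likeness of profiles was not computed.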

Additional observations from a re-analysis of the deposited data

How the results depend on the processing

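The count of 0 among the 10 genes and in each of the 5 lists was kept with no filter on the mean and without X and Y genes. It was also kept when recentred on the median fold, with the length trend removed and with the statistic rescaled by its robust spread of 1.20. Only recentring and removal of the length trend alter a fold, and both kept the sign of each of the 10. Recentring took 0.00255 off each fold, less than the smallest of the 10, 0.00516 for Rtp2, so no sign could change. That shift was also too small beside the errors to give a call. Rescaling by 1.20 can only raise p. The filter and the X and Y genes leave each p as it was, at 0.375 or more among the 10, and adjustment never lowers a p. In these settings the signs, and the count of 0 among the 10, could therefore not have changed. Over these settings the lowest adjusted p among the 10 ran from 0.810 to 0.988. Calls over all genes fell from 125 to 56 with the rescaled statistic. Called neighbours numbered 1 in windows of 1 Mb. With median transcript length the levels per kilobase were 4660 for Rtp2, 6674 for Lhx2, 1509 for Ebf1, 1031 for Ldb1, 1731 for Kdm1a, 552 for Reep1, 546 for Emx2 and 923 for Lbr. No paired analysis was possible because the table used here has 1 fold per gene and no values per library; leaving out replicates and other tools were not run for that reason. Depth enters each error as counting error and was not varied. At these errors an estimate below 1.16-fold for Kdm1a or 1.32-fold for Atf5 would not have been called. These limits apply to estimates, so a larger true change could also have been missed.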

Other observations

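The deposited standard errors do not order genes by precision. Genes with a single read in 1 library had errors of 0.0107 to 0.0108, below every error among the 10 genes described. Rtp3, with a mean of 0.671 normalized counts, had an error of 0.02 in the authors' deposited table, beside 0.07 for Rtp1 with a mean of 11585. A small deposited error at a low mean is therefore no sign of a well-measured gene, and ranking the factors of receptor choice by it would put Lhx9 and Rtp3 first.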
